A study of Mus musculus with 6 samples.

Results

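The set described here holds 10 genes for secreted proteins through which fibroblasts act on blood and lymphatic vessels: Vegfa, Vegfb, Vegfc, Vegfd, Pgf, Angpt1, Angpt2, Ccbe1, Adamts3 and Hgf. They were chosen by name, with earlier results of these data known. All 10 were found among the 15238 genes of the deposited count table, with counts in all 6 libraries. Fibroblasts were sorted from the intestine of mouse pups of the Balb/c strain at postnatal day 9 as podoplanin-positive cells lacking CD45, EpCAM and CD31, the surface proteins of leukocytes, epithelium and endothelium. Bulk RNA-seq libraries came from 3 DdblGata1 samples (replicates 4, 9 and 10) and 3 wild-type samples (replicates 1, 3 and 4). DdblGata1 pups carry a germline deletion in the regulatory region of Gata1 and are described by the labels as eosinophil-deficient. The deletion is present in every cell, so eosinophil loss and any other effect of the allele cannot be told apart. The labels do not say whether the libraries came from separate animals or from pools, so the p-values measure the spread between these libraries, which may be partly technical.

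Vessels of the gut villus grow and are maintained under the control of factors made by neighbouring stroma. VEGF-A, VEGF-B and placental growth factor act on blood vessels through VEGFR1, and VEGF-A also through VEGFR2. VEGF-C and VEGF-D drive lymphatic growth through VEGFR3 after proteolytic trimming, and VEGF-C is known for keeping up the lacteal, the lymphatic capillary that takes up dietary fat in each villus. The protease ADAMTS3, with CCBE1 as its cofactor, carries out a trimming step on VEGF-C. Angiopoietin-1 activates the receptor TIE2 (encoded by Tek), while angiopoietin-2 can block or activate it depending on context. Hepatocyte growth factor acts through MET on epithelium and on endothelium.

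VEGF-A and VEGF-B are each made in forms that differ at the end of the protein. The parts encoded by exons 6 and 7 of Vegfa bind heparan sulfate, and exon 7 also contributes to neuropilin binding, so a form lacking both diffuses freely. The long form of VEGF-B is the soluble one, and the short form stays bound to matrix. The junctions below tell these forms apart; they were read from GENCODE M21 transcripts on the GRCm38 build and are shown because the shares of the forms are compared further on. Both genes lie on the minus strand. Lower case marks the end of the upstream exon and capitals mark the first bases after the join. Coding exon 5 of Vegfa (chr17:46024065-46024094) can be followed by exon 6 (chr17:46022277-46022348), exon 7 (chr17:46020991-46021122) or the coding end of the last exon (chr17:46018861-46018879, printed with its stop codon). In Vegfb, exon 5 (chr19:6985805-6985840) joins one of 2 overlapping exons whose coding parts lie at chr19:6985386-6985596 in the long form and chr19:6985361-6985495 in the short form.
Vegfa-201, exon 5 to the last exon, 120 mature residues: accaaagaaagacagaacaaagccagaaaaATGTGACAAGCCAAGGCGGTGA
Vegfa-202, exon 5 to exon 7, 164 mature residues: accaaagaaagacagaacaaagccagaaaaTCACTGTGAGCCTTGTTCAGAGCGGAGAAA
Vegfa-203, exon 5 to exon 6, 144 mature residues: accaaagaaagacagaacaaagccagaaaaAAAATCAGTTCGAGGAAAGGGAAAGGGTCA
Vegfa-207, exon 6 to exon 7, 188 mature residues: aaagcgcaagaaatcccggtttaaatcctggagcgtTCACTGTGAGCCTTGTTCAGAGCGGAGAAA
Vegfb-201, exon 5 to the long exon 6, 186 mature residues: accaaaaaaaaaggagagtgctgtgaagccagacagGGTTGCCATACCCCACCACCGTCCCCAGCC
Vegfb-202, exon 5 to the short exon 6, 167 mature residues: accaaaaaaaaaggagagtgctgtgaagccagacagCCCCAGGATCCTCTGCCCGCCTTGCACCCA
Residues were counted from the AUG of the annotated coding sequence, less a signal peptide of 26 residues in VEGF-A and 21 in VEGF-B.

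The libraries held 28110454 to 30993472 estimated counts in DdblGata1 and 30210644 to 31210800 in wild-type. Fibroblast markers (8 genes, among them Pdgfra, Dcn and Col3a1) summed to 105800 to 146500 CPM in DdblGata1 and 107500 to 152800 CPM in wild-type, where CPM are counts scaled to a common library size by TMM, while 8 leukocyte markers summed to 15.9 to 21.5 CPM in DdblGata1 and 10.4 to 27.7 CPM in wild-type. Of 5 eosinophil markers only Ccr3 was in the table, at 0.166 to 0.258 CPM in DdblGata1 and 0.360 to 1.10 CPM in wild-type. Gata1 was not in the gene table, and its transcripts held 1 estimated count in 1 wild-type library and 0 in the other 5, so the genotype could not be checked from these libraries. Wild-type replicate 1 stood apart in its epithelial markers, with a sum of 622.9 CPM over 7 genes against 128.1 to 160.0 CPM in DdblGata1 and 110.9 and 120.1 CPM in the other wild-type libraries.

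No growth factor gene passed the test between the genotypes. With edgeR's quasi-likelihood test and Benjamini-Hochberg adjustment over all genes, 0 of the 10 had an adjusted p under 0.05, where the background was 0% of 15238 genes and the lowest adjusted p of any gene was 0.384. DESeq2 called 0 of the 10 as well, against 1.42% of all genes. At an unadjusted p under 0.05, 1 of the 10 remained (Vegfb), against 10.3% of all genes. The groups did not overlap for 1 of the 10 (again Vegfb), against 16.3% of all genes, made up of 8.98% higher and 7.34% lower in DdblGata1. By value, 6 were higher and 4 lower in DdblGata1, with a median log2 fold change of 0.05 against -0.01 over all genes, of which 49.3% were higher. These shares sit near the background. In bulk libraries, fewer cells of a type and less RNA per cell cannot be told apart, which holds for every difference given here.

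**Figure D1:**
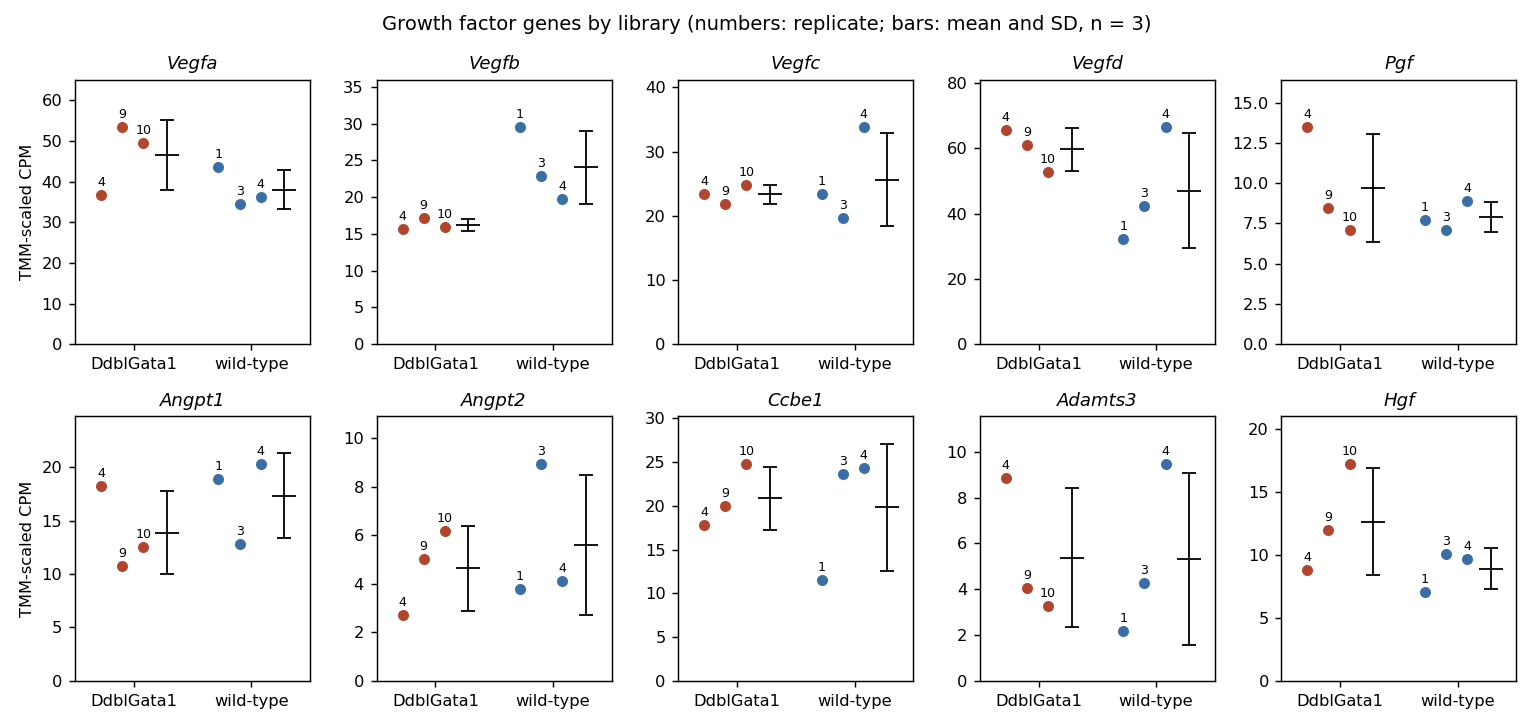
TMM-scaled CPM of the 10 growth factor genes in each library, DdblGata1 in red and wild-type in blue, with the replicate number at each point and a bar for the mean and SD (n = 3 per group). For Vegfb all DdblGata1 libraries (15.7 to 17.1 CPM) sit below all wild-type libraries (19.7 to 29.5 CPM); the groups overlap for the other 9 genes.

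Levels per length were compared as TPM, which divides counts by transcript length,, summed over each gene's transcripts. Vegfd was the most abundant of the set at 50.1 ± 14.6 TPM (SD, n = 6 libraries), above 81.7% of all genes. Vegfa followed at 42.5 ± 8.67 TPM, Vegfb at 30.2 ± 7.07 TPM and Vegfc at 21.7 ± 4.66 TPM. Vegfd exceeded Vegfa in 4 of 6 libraries, Vegfa exceeded Vegfb in 4 and Vegfb exceeded Vegfc in 5, so these neighbours were not separated by the spread between libraries. Vegfc exceeded the next gene, Pgf, in 6 of 6 libraries, which set the 4 VEGF genes apart from the rest. The place of Vegfa depends on its short non-coding transcripts: over coding transcripts alone it had 22.6 ± 3.93 TPM, below Vegfb at 29.9 ± 7.19 TPM (SD, n = 6), and was the lower of the pair in 4 of 6 libraries.

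The lower group was led by Pgf at 9.61 ± 2.98 TPM, followed by Angpt1 at 7.96 ± 2.12 TPM, Hgf at 7.70 ± 2.57 TPM and Ccbe1 at 6.64 ± 1.66 TPM. Each of the first 3 exceeded its next neighbour in only 3 or 4 of 6 libraries. Ccbe1 exceeded Angpt2 in 6 of 6. Angpt2 at 3.47 ± 1.36 TPM and Adamts3 at 3.10 ± 1.84 TPM were the least abundant, above 23.2% and 21.7% of all genes, and Angpt2 exceeded Adamts3 in 4 of 6 libraries. Both lymphatic ligands were thus more abundant per length than Ccbe1 and Adamts3, the members whose products process VEGF-C. Related protease genes outside the set, which are on the processing list used below, were not part of this comparison. Of these, Adamts2 had 386.1 to 604.1 CPM in DdblGata1 and 364.6 to 563.7 CPM in wild-type. Adamts14 had 35.5 to 55.7 CPM in DdblGata1 and 17.1 to 39.0 CPM in wild-type.

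**Figure D2:**
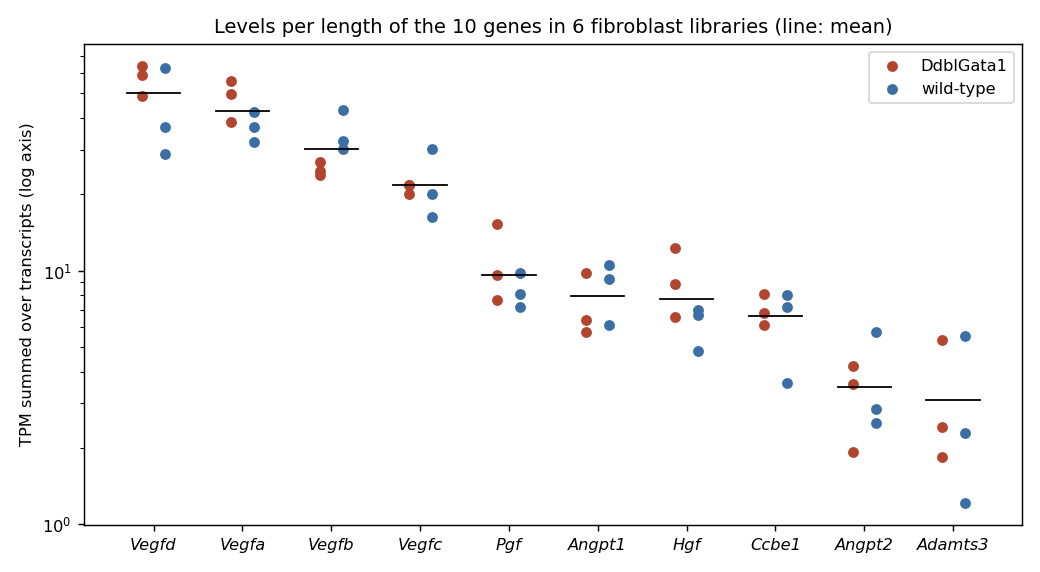
TPM of each gene, summed over its transcripts, on a log axis, ordered by the mean over 6 libraries (black line), with DdblGata1 libraries in red left of wild-type libraries in blue. The 4 VEGF genes lie between 16.3 and 64.1 TPM, Pgf, Angpt1, Hgf and Ccbe1 between 3.62 and 15.3 TPM, and Angpt2 and Adamts3 between 1.21 and 5.72 TPM.

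Among the blood-vessel ligands, Vegfa, which encodes the principal driver of angiogenesis (chr17:46016993-46032369), had 36.8, 53.3 and 49.4 CPM in DdblGata1 replicates 4, 9 and 10, against 43.5, 34.4 and 36.1 CPM in wild-type replicates 1, 3 and 4. Replicates 9 and 10 of DdblGata1 were the highest of the 6, and the groups overlapped through DdblGata1 replicate 4 (log2 fold change of 0.29 ± 0.18 (SE), edgeR adjusted p of 0.582).

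Most Vegfa reads were assigned to transcripts annotated as protein coding, which held 88.3% to 91.5% of the gene's estimated counts in DdblGata1 and 88.6% to 89.8% in wild-type. The remaining counts lay on short transcripts, mostly annotated as retaining an intron, which weigh more per length, so the coding share of the gene's TPM was only 50.8% to 59.0% in DdblGata1 and 52.4% to 54.2% in wild-type. Over the coding transcripts alone, Vegfa had 22.8, 28.3 and 25.3 TPM in DdblGata1, against 22.2, 17.5 and 19.2 TPM in wild-type. On this measure all 3 DdblGata1 libraries were above all 3 wild-type libraries, and 17.4% of all genes had groups that did not overlap on it. The edgeR fit on sums over coding transcripts, added after the data were seen, gave Vegfa an unadjusted p of 0.0531 and an adjusted p of 0.425.

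Vegfb (chr19:6982473-6987651), whose product acts through VEGFR1 and has been linked to fatty acid handling by endothelium in mice, was the member with the smallest p. It had 15.7, 17.1 and 15.9 CPM in DdblGata1, against 29.5, 22.9 and 19.7 CPM in wild-type. The DdblGata1 libraries lay close together and below every wild-type library, while wild-type replicate 1 was the highest of all. The means were 16.2 ± 0.793 CPM in DdblGata1 and 24.1 ± 4.98 CPM in wild-type (SD, n = 3 each), a log2 fold change of -0.57 ± 0.19 (SE), or 0.675-fold.

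The difference in Vegfb did not hold after adjustment over all genes, with an adjusted p of 0.444 from edgeR and 0.202 from DESeq2. Without wild-type replicate 1, the library with the high epithelial markers, the log2 fold change was -0.42 with an unadjusted p of 0.0545, against 0.0188 with all libraries. Other genes ran beside it. The 7 measured markers of pericytes and vascular mural cells summed to 1677, 1776 and 1677 CPM in DdblGata1, against 2594, 2280 and 2143 CPM in wild-type, and 4 of the 7 had groups that did not overlap, against 16.3% of all genes. Rgs5 alone made up 48.3% to 52.9% of that sum in DdblGata1 and 49.9% to 61.2% in wild-type, and on the same list Notch3 and Pdgfrb had log2 fold changes of 0.13 and 0.04. The 8 smooth muscle markers summed to 5904, 9100 and 7399 CPM in DdblGata1, against 13350, 13550 and 8514 CPM in wild-type, all 8 lower by value, though the sums overlapped. The part of these cells in the Vegfb values was not tested.

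Placental growth factor is encoded by Pgf (chr12:85166635-85177790), a VEGF relative that binds VEGFR1 alone. Its values were 13.5, 8.47 and 7.10 CPM in DdblGata1, against 7.72, 7.10 and 8.90 CPM in wild-type. DdblGata1 replicate 4 stood above the other 5 libraries, which lay between 7.10 and 8.90 CPM. The log2 fold change was 0.29 ± 0.28 (SE; edgeR adjusted p of 0.714), and it was -0.022 without that library.

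Of the lymphatic ligands, Vegfc (chr8:54077606-54187096) had 23.4, 21.8 and 24.8 CPM in DdblGata1, against 23.5, 19.7 and 33.8 CPM in wild-type. All DdblGata1 values fell inside the wild-type range, whose highest value came from replicate 4. A log2 fold change of -0.14 ± 0.22 (SE; edgeR adjusted p of 0.833) became 0.11 without wild-type replicate 4.

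Vegfd (chrX:164373378-164402650), whose product binds VEGFR3 and in mice is not required for lymphatic development, had 65.7, 61.1 and 52.7 CPM in DdblGata1, against 32.2, 42.5 and 66.5 CPM in wild-type. The groups overlapped through wild-type replicate 4, the highest of the 6 libraries, while wild-type replicates 1 and 3 were the lowest. The log2 fold change was 0.35 ± 0.26 (SE; edgeR adjusted p of 0.630). Single libraries moved it both ways: it was 0.11 without wild-type replicate 1, with an unadjusted p of 0.619, and 0.68 without wild-type replicate 4, with an unadjusted p of 0.0123. Its lowest adjusted p over 17 alternatives was 0.503.

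CCBE1, the secreted cofactor that speeds VEGF-C trimming, is encoded on chromosome 18. Ccbe1 had 17.8, 20.0 and 24.8 CPM in DdblGata1, against 11.5, 23.6 and 24.3 CPM in wild-type. Wild-type replicate 1 was lowest, and the other 5 libraries were intermixed (log2 fold change of 0.07 ± 0.30 (SE), edgeR adjusted p of 0.935). Most Ccbe1 counts were on 1 transcript of 5304 bases that the annotation types as subject to nonsense-mediated decay although it holds an open reading frame of 408 codons, so sums over transcripts typed as coding leave nearly all of the gene out.

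Adamts3 (chr5:89677087-89883334), which encodes a protease that cuts VEGF-C, had 8.84, 4.04 and 3.26 CPM in DdblGata1, against 2.20, 4.28 and 9.46 CPM in wild-type. The spread lay within the groups: replicate 4 of each genotype was at least 8.84 CPM and the other 4 libraries were at most 4.28 CPM. Adamts3 thus had a log2 fold change of 0.02 ± 0.58 (SE; edgeR adjusted p of 0.993), the widest error of the 10. The 2 high values drew on a non-coding transcript of 563 bases. It held 51.5% of the gene's TPM in DdblGata1 replicate 4 and 40.4% in wild-type replicate 4, on 9.20 and 8.63 estimated counts. Over coding transcripts alone, Adamts3 had 2.58, 2.41 and 1.85 TPM in DdblGata1, against 1.21, 1.83 and 3.29 TPM in wild-type. On that measure DdblGata1 replicate 4 was close to replicate 9. The 2 replicate 4 libraries also had the highest values of the second surrogate variable in the deposited sample sheet. These were 0.589 in DdblGata1 and 0.461 in wild-type, against -0.442 to 0.0834 in the other libraries. The labels give no batch for the 2 libraries, and what the variable stands for was not tested.

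Wild-type replicate 1 had the lowest value of Vegfd, Ccbe1, Adamts3 and Hgf among the 6 libraries and the highest of Vegfb.

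For the angiopoietins, Angpt1 (chr15:42424723-42676977), the TIE2 agonist, had 18.3, 10.8 and 12.6 CPM in DdblGata1, against 18.9, 12.8 and 20.3 CPM in wild-type. DdblGata1 replicates 9 and 10 were the lowest, with wild-type replicate 3 close above, and the groups overlapped. The log2 fold change was -0.32 ± 0.27 (SE; edgeR adjusted p of 0.663). Angpt2 (chr8:18690263-18741562), the context-dependent ligand of the same receptor, had 2.71, 5.03 and 6.17 CPM in DdblGata1, against 3.78, 8.93 and 4.12 CPM in wild-type. Its log2 fold change was -0.27 ± 0.44 (SE; edgeR adjusted p of 0.832), and wild-type replicate 3 alone held the top value.

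The direction for Angpt2 turned with the way its transcripts were summed. Its coding transcript had 1.94, 2.59 and 4.21 TPM in DdblGata1, against 1.55, 3.78 and 0.803 TPM in wild-type, and most of the remaining TPM was on a non-coding transcript of 652 bases. With plain transcript sums the log2 fold change was 0.32, and with coding sums it was 0.43. With the deposited surrogate variables as covariates it was -0.77, at an unadjusted p of 0.0241. The log2 ratio of Angpt1 to Angpt2 in TPM, with 0.1 TPM added to each, was 2.28, 0.657 and 0.589 in DdblGata1, against 1.85, 0.0892 and 1.84 in wild-type. Angpt1 was thus the more abundant of the pair per length in all 6 libraries. The mean log2 ratio was 1.17 ± 0.954 in DdblGata1 and 1.26 ± 1.01 in wild-type (SD, n = 3 each), a difference of -0.09 with a two-sided exact permutation p of 1, where the smallest p this design allows is 0.1.

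Hgf (chr5:16553495-16620152), the ligand of MET, had 8.76, 12.0 and 17.2 CPM in DdblGata1, against 7.02, 10.0 and 9.65 CPM in wild-type. DdblGata1 replicates 10 and 9 were the highest, and replicate 4 fell inside the wild-type range. The log2 fold change of 0.51 ± 0.29 (SE) was the largest upward value of the 10, with an adjusted p of 0.552 from edgeR and 0.540 from DESeq2. It was 0.20 without DdblGata1 replicate 10, 0.34 without wild-type replicate 1 and 0.16 with the deposited surrogate variables as covariates. On sums over coding transcripts its unadjusted p was 0.0492, which also did not pass adjustment.

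**Figure D3:**
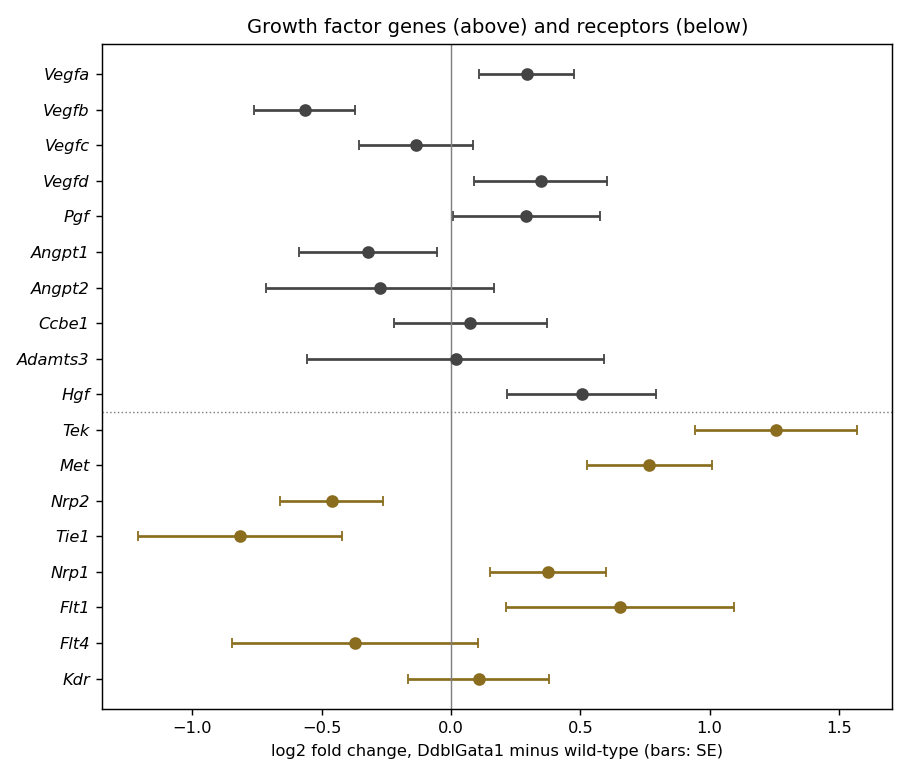
log2 fold change of DdblGata1 minus wild-type with its SE from edgeR (n = 3 per group) for the 10 growth factor genes (grey, above the dotted line) and 8 of their receptors (brown, below). The growth factor genes lie between -0.57 for Vegfb and 0.51 for Hgf, and the receptors between -0.82 for Tie1 and 1.26 for Tek.

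The forms of Vegfa and Vegfb whose junctions are printed above were compared as shares of each gene's coding TPM. In Vegfa, the form with exon 7 alone (164 mature residues) made up 53.4%, 49.1% and 41.0% in DdblGata1, against 30.6%, 53.9% and 33.9% in wild-type. The freely diffusing form with neither exon (120 residues) made up 39.3%, 50.6% and 48.0% in DdblGata1, against 68.2%, 38.6% and 57.0% in wild-type. These 2 forms together were most of the coding signal, and wild-type libraries held both the highest and the lowest share of each.

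The means for the exon 7 form were 47.8% ± 6.32 in DdblGata1 and 39.5% ± 12.6 in wild-type (SD, n = 3 each). Transcripts with both exons 6 and 7 (188 or 182 residues) were at 0 estimated counts in all 6 libraries. Counting error alone would allow up to 3 counts in each. That limit does not cover reads of such transcripts that kallisto gave to other forms. The form with exon 6 alone (144 residues) rested on 0.284 to 10.4 estimated counts in DdblGata1 and 0.888 to 5.10 in wild-type, too few for a comparison. All of these shares come from kallisto's division of reads among transcripts that share most of their sequence, and the annotated transcripts differ in length (2765 bases for Vegfa-201, 3451 for Vegfa-202 and 513 for Vegfa-203).

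In Vegfb, the soluble form with the long exon 6 made up 57.7%, 53.2% and 41.2% in DdblGata1, against 59.3%, 53.7% and 54.5% in wild-type, and the matrix-bound short form made up the rest. The 2 forms were near parity in every library. Their means for the long form were 50.7% ± 8.51 in DdblGata1 and 55.8% ± 3.05 in wild-type (SD, n = 3 each). In TPM both forms were lower in DdblGata1 by value: the long form had 14.3, 13.6 and 9.85 TPM in DdblGata1, against 25.5, 17.1 and 16.4 TPM in wild-type. The short form had 10.5, 11.9 and 14.1 TPM in DdblGata1, against 17.5, 14.8 and 13.7 TPM in wild-type, and overlapped.

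**Figure D4:**
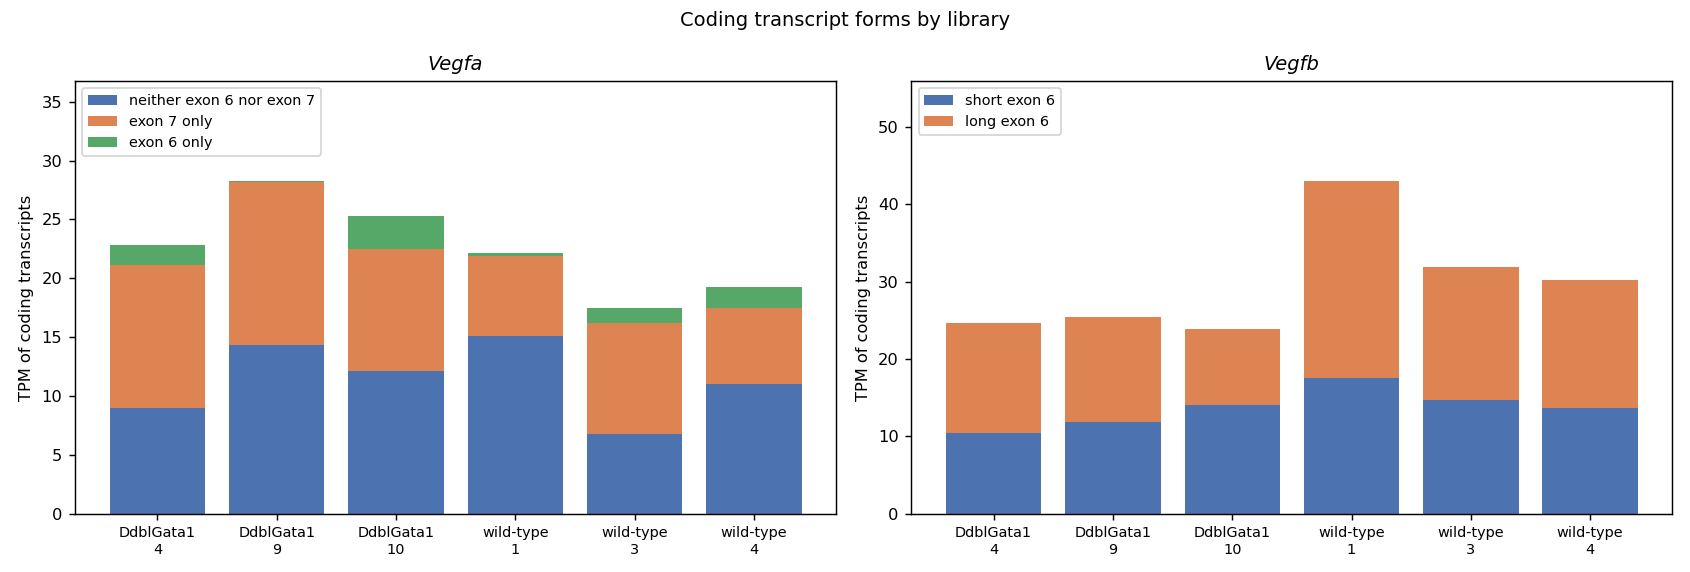
TPM of the coding transcript forms of Vegfa (left) and Vegfb (right) in each library, stacked, with the DdblGata1 libraries left of the wild-type libraries. Vegfa splits between the exon 7 form (30.6% to 53.9% of coding TPM) and the form with neither exon (38.6% to 68.2%), and Vegfb between a long and a short form near parity.

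Transcript usage was tested with edgeR's diffSpliceDGE and Simes' method. Of the members, 7 had enough transcripts to test, and 0 of the 7 changed, against 0.254% of 9447 genes. The unadjusted Simes p was 0.599 for Vegfa and 0.856 for Vegfb (both with an adjusted p of 1), and the smallest among members was 0.369 for Ccbe1, so 0 members had an unadjusted p under 0.05. The F test of the same tool called 0 members too.

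The receptors of these ligands were read in the same libraries. The most abundant were the neuropilins, co-receptors for VEGFs and semaphorins: Nrp1 averaged 84.1 TPM and Nrp2 70.2 TPM over the 6 libraries. Markers of smooth muscle and mural cells were also present, so which cells held the receptor transcripts cannot be told. Tek, encoding TIE2, averaged 30.5 TPM and Met 11.0 TPM. The 3 VEGF receptors themselves were low, with Kdr (VEGFR2) at 3.26 TPM, Flt4 (VEGFR3) at 0.752 TPM and Flt1 (VEGFR1) at 0.656 TPM, and Tie1, the TIE2 partner, was at 2.26 TPM.

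Among the 8 receptors, 0 were called by edgeR, 2 were higher and 1 lower in DdblGata1 at an unadjusted p under 0.05 (background 6.03% higher and 4.23% lower), and 4 had groups that did not overlap, against 16.3% of all genes. Their median log2 fold change was 0.24. DESeq2 called 1 of the 8 as higher, where it called 0.938% of all genes. That gene was Tek, with 81.6, 89.2 and 150.9 CPM in DdblGata1, against 28.8, 56.6 and 49.4 CPM in wild-type. Every DdblGata1 library was above every wild-type library, and DdblGata1 replicate 10 was the highest by far. The log2 fold change was 1.26 ± 0.31 (SE), with an adjusted p of 0.384 from edgeR and 0.0173 from DESeq2.

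The DESeq2 call of Tek depended on which library was left out. It held without DdblGata1 replicate 4 (adjusted p of 0.00433) and without wild-type replicate 3 (0.00948). The call was lost without DdblGata1 replicate 9 (adjusted p of 0.0567) or replicate 10 (0.286). It was also lost without wild-type replicate 1 (0.0758) or replicate 4 (0.0543). The log2 fold changes ran from 0.92 to 1.45 over the 6 fits. Tek is also an endothelial gene. The other endothelial markers were low in both groups: Pecam1, which encodes the gated CD31, had 5.53 to 6.97 CPM in DdblGata1 and 3.37 to 7.78 CPM in wild-type, and Cdh5, the endothelial cadherin, had 1.52 to 5.13 CPM in DdblGata1 and 3.21 to 4.18 CPM in wild-type. The 8 blood endothelial markers that are not receptors of these ligands summed to 41.7, 44.8 and 34.9 CPM in DdblGata1, against 46.5, 43.7 and 34.7 CPM in wild-type. None of the 8 had groups that did not overlap, against 16.3% of all genes. Besides Tek, that sum leaves out Kdr, whose groups overlapped, and Tie1, which was lower in every DdblGata1 library than in any wild-type library. The part of endothelial cells in the Tek values was not tested.

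The 7 markers of trophocytes and adventitial fibroblasts, cells that surround vessels and crypt bases, summed to 2478, 2450 and 3017 CPM in DdblGata1, against 1553, 2124 and 2083 CPM in wild-type, with DdblGata1 replicate 10 highest and wild-type replicate 1 lowest, as for Tek. Cd34 alone had 1127, 1147 and 1378 CPM in DdblGata1, against 458.1, 861.4 and 799.8 CPM in wild-type. By value 5 of the 7 were higher and 2 lower, with log2 fold changes of -0.34 for Grem1 and -0.06 for Cd81. The 5 mesothelial markers summed to 379.9, 271.1 and 488.0 CPM in DdblGata1, against 331.8, 323.6 and 388.1 CPM in wild-type, and overlapped, with DdblGata1 replicate 9 lowest. The part of these cells in the Tek values was not tested.

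Met, the HGF receptor, had 49.2, 35.0 and 48.6 CPM in DdblGata1, against 18.3, 27.8 and 32.0 CPM in wild-type. The groups did not overlap, and neither test called it (log2 fold change of 0.77 ± 0.24 (SE), adjusted p of 0.424 from edgeR and 0.150 from DESeq2). Nrp2 had 198.8, 297.6 and 258.9 CPM in DdblGata1, against 332.7, 409.0 and 298.3 CPM in wild-type, a log2 fold change of -0.46 ± 0.20 (SE) with adjusted p of 0.484 from edgeR. DdblGata1 replicate 9 and wild-type replicate 4 nearly touched. Tie1 had 6.01, 5.23 and 2.52 CPM in DdblGata1, against 6.83, 6.10 and 11.3 CPM in wild-type, and was not called either (log2 fold change of -0.82 ± 0.39 (SE), edgeR adjusted p of 0.504).

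**Figure D5:**
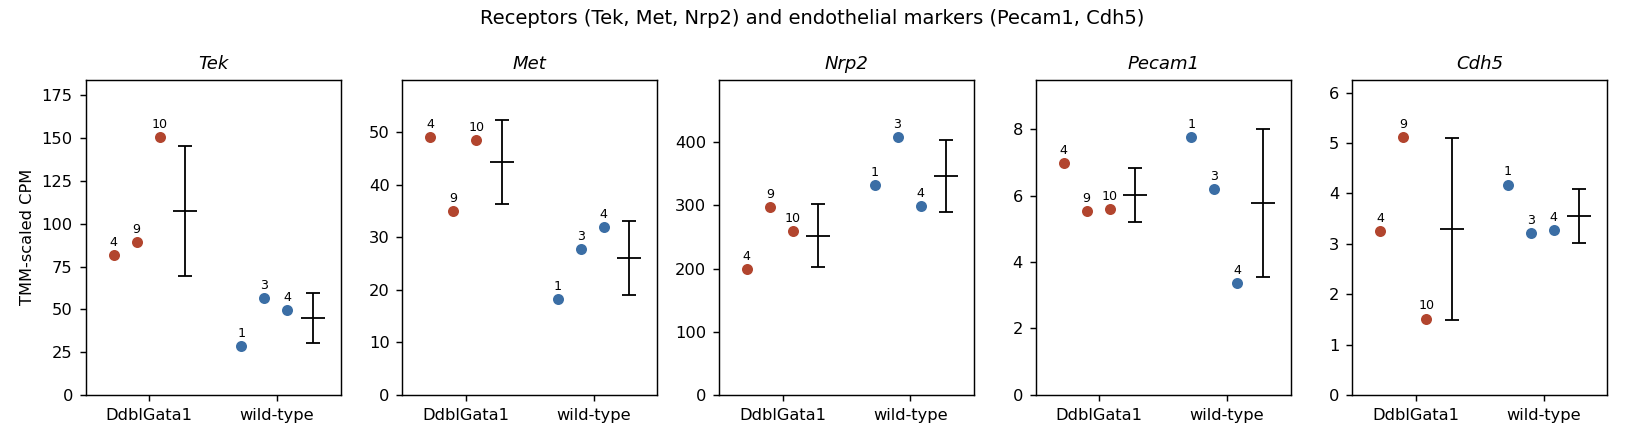
TMM-scaled CPM of the receptors Tek, Met and Nrp2 and of the endothelial markers Pecam1 and Cdh5 in each library, DdblGata1 left in red and wild-type right in blue, with replicate numbers and a bar for the mean and SD (n = 3 per group). Tek (81.6 to 150.9 CPM in DdblGata1, 28.8 to 56.6 CPM in wild-type) and Met do not overlap between groups, while Pecam1 and Cdh5 overlap and stay under 8 CPM.

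Genes that release, trim or sequester these ligands formed a list of 23, all measured, including Ccbe1 and Adamts3. None was called by edgeR, 7 were higher and 1 lower at an unadjusted p under 0.05 (background 6.03% and 4.23%), and the median log2 fold change was 0.10. DESeq2 called 3 as higher and 1 as lower, where it called 0.938% and 0.479% of all genes. Pcsk6, a proprotein convertase of the furin family, had 430.8, 353.1 and 529.1 CPM in DdblGata1, against 124.0, 275.0 and 200.9 CPM in wild-type (log2 fold change of 1.13 ± 0.29 (SE), adjusted p of 0.384 from edgeR and 0.0230 from DESeq2).

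Plau, the urokinase that activates plasminogen, had 54.1, 54.4 and 78.8 CPM in DdblGata1, against 20.5, 41.8 and 30.1 CPM in wild-type (DESeq2 adjusted p of 0.0486). Thbs1, encoding the angiogenesis inhibitor thrombospondin-1, had 778.5, 1339 and 1029 CPM in DdblGata1, against 317.9, 606.4 and 595.9 CPM in wild-type (DESeq2 adjusted p of 0.0405). In these 3 genes the groups did not overlap, and wild-type replicate 1 was the lowest library of each. Pcsk5, another convertase, was at 76.5 to 122.9 CPM in DdblGata1 and 48.6 to 69.9 CPM in wild-type and was not called (DESeq2 adjusted p of 0.139).

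Thbs2, the second thrombospondin, was named after its values were seen because it was the gene called as lower: it had 1007, 1061 and 958.1 CPM in DdblGata1, against 1394, 1447 and 1315 CPM in wild-type (DESeq2 adjusted p of 0.0385). The 2 thrombospondins thus differed in direction, Thbs1 being higher and Thbs2 lower in DdblGata1 in every pairing of libraries. Early response genes that react to tissue dissociation also ran with the groups: 7 of 10 were higher at an unadjusted p under 0.05, against 6.03% of all genes, and the 10 summed to 7962, 9347 and 7879 CPM in DdblGata1, against 6115, 5856 and 5839 CPM in wild-type. Their part in the Thbs1, Plau and Pcsk6 values was not tested.

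Other secreted or membrane-bound factors that act on blood or lymphatic endothelium were counted from a list of 31, of which 30 were measured. None was called by edgeR, 4 were higher and 2 lower at an unadjusted p under 0.05 (background 6.03% and 4.23% of all genes), and the median log2 fold change was 0.19. DESeq2 called 2 as higher, where it called 0.938% of all genes. Edn1, encoding the vasoconstrictor endothelin-1, had 7.77, 8.97 and 15.0 CPM in DdblGata1, against 3.39, 5.52 and 3.73 CPM in wild-type (log2 fold change of 1.33 ± 0.34 (SE), adjusted p of 0.384 from edgeR and 0.0269 from DESeq2). Sema3c, a neuropilin ligand, had 510.1, 594.3 and 752.7 CPM in DdblGata1, against 181.7, 393.6 and 332.0 CPM in wild-type (DESeq2 adjusted p of 0.0433).

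Both genes were higher in every DdblGata1 library than in any wild-type library. Efnb2, encoding the arterial ephrin ligand, which is membrane-bound, was at 43.1 to 49.3 CPM in DdblGata1 and 25.9 to 35.9 CPM in wild-type. Ptn, encoding the heparin-binding factor pleiotrophin, was at 578.2 to 961.8 CPM in DdblGata1 and 369.7 to 576.4 CPM in wild-type. Neither Efnb2 nor Ptn was called by DESeq2 (adjusted p of 0.109 and 0.115). Every DESeq2 call on these lists was lost on leaving out DdblGata1 replicate 9, DdblGata1 replicate 10, wild-type replicate 1 or wild-type replicate 4, with adjusted p between 0.0504 and 0.482 in those fits, and that of Thbs2 also without wild-type replicate 3, at 0.237.

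Oxygen sensing genes and targets of the hypoxia factors, the best known inducers of Vegfa, showed no difference that passed. Of 20 genes, all measured, 0 were called by edgeR or DESeq2, against 0% and 1.42% of all genes. None had an unadjusted p under 0.05 in edgeR, against 10.3% of all genes. The groups did not overlap for 1 of the 20 (Arnt, higher in DdblGata1), against 16.3% of all genes. The median log2 fold change was -0.04. Adm, encoding the lymphangiogenic peptide adrenomedullin, had 38.9, 30.0 and 55.8 CPM in DdblGata1, against 15.0, 40.3 and 24.0 CPM in wild-type. The oxygen sensor gene Egln3 had 31.1, 50.6 and 58.1 CPM in DdblGata1, against 83.0, 64.3 and 53.4 CPM in wild-type, and both overlapped. Pgk1, a glycolytic target, was at 93.3 to 137.1 CPM in DdblGata1 and 136.0 to 173.9 CPM in wild-type, and Arnt, the partner of the hypoxia factors, was at 116.4 to 122.9 CPM in DdblGata1 and 89.2 to 107.1 CPM in wild-type.

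Targets of YAP and TAZ, coactivators known from mice to raise Vegfc in villus fibroblasts, were likewise not called. The table held 8 of the 10 listed symbols, since Cyr61 and Ctgf stand for the same genes as the newer names Ccn1 and Ccn2. Of these, 0 had an unadjusted p under 0.05 in edgeR and 0 were called by DESeq2, against 10.3% and 1.42% of all genes. Their median log2 fold change was -0.05. Ctgf, encoding a matricellular protein, had 73.4, 47.6 and 24.8 CPM in DdblGata1, against 58.6, 58.3 and 94.0 CPM in wild-type. Ajuba, a junction adaptor gene, was at 9.04 to 20.5 CPM in DdblGata1 and 17.8 to 24.7 CPM in wild-type, and Axl, a receptor kinase gene, was at 793.1 to 924.3 CPM in DdblGata1 and 333.7 to 970.3 CPM in wild-type. Ankrd1 stayed under 1 CPM in every library.

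The genes most like the 2 members of smallest p were sought by Pearson correlation of log2 CPM over the 6 libraries, among 12825 genes, as a description. Nearest to Vegfb were Cisd1 (r = 0.994), Hoxa4 (r = 0.991) and Nfkbil1 (r = 0.990), and 104 genes reached a correlation of 0.95. Cisd1, which encodes an iron-sulfur protein of the outer mitochondrial membrane, had 11.1, 13.3 and 11.3 CPM in DdblGata1, against 25.2, 19.1 and 14.6 CPM in wild-type, the same order of libraries as Vegfb. Nearest to Hgf were Fam45a (r = 0.998), Arpc1a (r = 0.997) and Rcbtb2 (r = 0.996), among 174 genes at 0.95 or more. With 6 points that share depth and composition, correlations this high arise for many genes.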

How the data were processed

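RNA of sorted fibroblasts was made into libraries with a stranded kit, per the labels. Tools listed in the submitters' processing notes, with no role stated, are DESeq2, R 4.2.2, bcl2fastq 2.2 and kallisto; the builds listed are mm10 and GRCm38.p6. The authors deposited estimated (expected) counts and TPM per transcript, with lengths in bases, and a gene table of estimated counts rounded to whole numbers. 99.7% of its values equal length-scaled TPM within 1% plus 1 count, and 26.2% equal plain transcript sums. Its genes were already filtered. Each library also has a size factor (a ratio) and 2 surrogate variable scores, deposited by the authors with no description of how the scores arose.

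Genes were tested on the deposited gene counts with edgeR 4.0.16 (TMM, filterByExpr, robust quasi-likelihood test, no covariates), p-values adjusted over all 15238 genes, threshold 0.05. Fold changes are log2 of DdblGata1 over wild-type. Alternatives were DESeq2 1.42.0, limma 3.58.1, other scalings, filters and sums, the surrogate variables, and leaving out each library. 113492 of 115270 transcripts were placed in genes of GENCODE M21 (GRCm38), which gave coordinates, transcript types and sequences. Members, gene lists and tests were chosen with earlier results of these data known. All 10 members were described; from each pathway list, up to 4 genes with the smallest p were named, and for likeness, 3 genes for each of 2 members. Totals of 28110454 to 31210800 counts per library gave members 72 to 2031 counts. The upper limit given for transcripts without counts covers counting error only. SEs come from the edgeR fit and SDs from the libraries, so both include the spread between libraries.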

Additional observations from a re-analysis of the deposited data

How the results depend on the processing

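Over 166 alternative values of the 10 members, 153 kept their direction, 13 reversed and 0 passed the adjusted threshold. Without single libraries the log2 fold change ran from -0.29 to 0.11 for Vegfc (reversed without wild-type 4), -0.022 to 0.46 for Pgf (reversed without DdblGata1 4), -0.55 to 0.23 for Angpt2 (reversed without wild-type 3), -0.22 to 0.25 for Ccbe1 (reversed without DdblGata1 10, at -0.09, and without wild-type 1) and -0.54 to 0.73 for Adamts3 (reversed without DdblGata1 4, wild-type 1, at -0.37, and wild-type 3, at -0.12). Plain sums gave 0.32 and coding sums 0.43 for Angpt2, coding sums -1.53 for Ccbe1, surrogate variables -0.18 for Ccbe1 and -0.77 for Angpt2 (not reversed), and upper quartile scaling -0.027 for Adamts3. A minimum of 10 CPM in 3 libraries left out Pgf, Angpt2, Adamts3 and Hgf, which have no value there. All these genes were uncalled throughout, and apart from the transcripts left out by construction of the coding sums, the cause was not tested.

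DESeq2 called 216 of all genes where edgeR called 0 (1564 at an unadjusted p under 0.05). Leaving out a library moved edgeR's calls between 0 and 1, its unadjusted count between 818 and 2715, and DESeq2's calls between 43 and 1023. Genes with changed transcript usage numbered 24, with 0 when transcripts under 10% of their gene were left out, 47 with the F test, and 2 to 70 without single libraries; no member was among them. The difference in the log2 ratio of Angpt1 to Angpt2 ran from -0.67 to 0.21 without single libraries. No paired analysis was possible because the genotypes share only replicate number 4. With 3 libraries a group and 72 counts in the lowest member value, differences of the size of the SEs given could not be resolved. Differences of several SEs were not called by edgeR either: Tek, at a log2 fold change of 1.26 ± 0.31 (SE), had an edgeR adjusted p of 0.384. An uncalled gene is therefore not shown to be unchanged.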
